A study of Rattus norvegicus with 4 samples.

Results

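The fibrillar collagens form the banded fibers of the cardiac interstitium, and 8 of their chain genes were examined here for N6-methyladenosine (m6A) peaks. They are Col5a1, Col5a2 and Col5a3 of type V collagen, Col11a1 and Col11a2 of type XI collagen, and Col1a1, Col1a2 and Col3a1 of the abundant types I and III. The 8 were chosen by gene name, with earlier results of these data known, out of 8729 genes with a listed peak, and their rows were found by the NCBI gene ID. They held 81 of the 21249 peaks in the list of the Vector group and 57 of the 17796 peaks in the list of the FTO group.

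Primary cardiac fibroblasts (CFs) came from hearts of newborn Sprague-Dawley rats no older than 3 days and were grown in culture. The Vector group, which the labels call Control and WT, received the empty plasmid, and the FTO group, called Treat, received the plasmid for overexpression of rat FTO, an enzyme that removes m6A. Each group gave 1 m6A-IP library and 1 input library of total RNA, and 1 list of m6A peaks was deposited per group. A peak is a stretch where RNA pulled down with the m6A antibody exceeds the input, and the lists give its number, its length in bp, a transcript and a gene ID, but no position or height. There was no replicate of either group, so no difference below has a replicate error or a test, and the sequencing depth behind the lists is unknown.

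A collagen chain is built of repeated Gly-X-Y triplets, and 3 chains wind into a triple helix that is cut free of its end propeptides before it joins a fibril. Types I and III make up the bulk of the fibrils in the heart. Types V and XI are minor chains within fibrils of more abundant types, where they start fibril assembly and hold down fibril width. Type V does so in soft tissues and type XI mainly in cartilage. In the genes of the fibrillar chains the helix is spread over many short exons of 54 bp, or of related sizes such as 45, 99, 108 and 162 bp. All of these are multiples of the 9 bases that encode 1 Gly-X-Y triplet, so an exon of 54 bp encodes 6 triplets.

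The 8 genes were chosen with the knowledge that types I and III had no listed peak, so the division between the types is a description and no finding. Listed peaks were found on 4 genes, all of type V or XI, and all 4 had fewer peaks in the FTO list, though for Col5a1 and Col5a2 the direction turned once the numbers were scaled for the size of the lists. The numbers ran from 34 to 29 for Col5a1, from 22 to 21 for Col5a2, from 18 to 6 for Col11a1 and from 7 to 1 for Col5a3. Thus the 4 genes were far from uniform, with nearly the same number in both lists for Col5a2 and most peaks gone from the FTO list for Col11a1 and Col5a3. Over all genes with a peak, 41.4% had fewer FTO peaks, 37.4% as many and 21.2% more. Among the 582 genes with at least 7 Vector peaks, as the 4 chains had, 72.5% had fewer FTO peaks. That limit rests on the Vector number alone, as do the ranges of Vector peaks used below, and such a choice by itself favors lower FTO numbers. The FTO list was also shorter as a whole, by a ratio of 1.19. With FTO numbers raised by that ratio, the difference from the Vector number was 0.63 peaks for Col5a1 and 3.07 for Col5a2, while Col5a3 and Col11a1 still had fewer. In such bulk libraries, fewer methylated molecules, less RNA of a gene per cell and fewer cells that express it cannot be told apart.

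**Figure D1:**
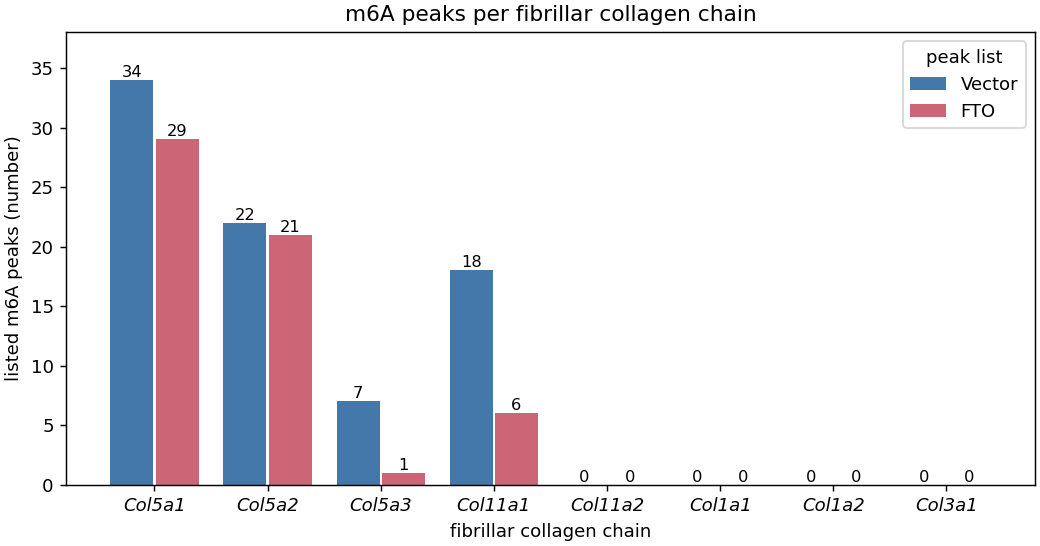
Number of listed m6A peaks (vertical axis) for each of the 8 fibrillar collagen chains (horizontal axis), with 1 bar for the Vector list and 1 for the FTO list and no error bars since each group has 1 list. Col5a1 stands at 34 and 29, Col5a2 at 22 and 21, Col5a3 at 7 and 1 and Col11a1 at 18 and 6, and the other 4 chains are at 0 in both lists.

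The peaks of these 4 genes were short and mostly of a few repeated lengths. Their median peak was 57 bp long in the Vector list and 99 bp in the FTO list, against 204 bp and 229 bp in all other genes. Of the 81 Vector peaks, 65 had 1 of the 5 helix exon lengths given above, which is 80.2% (95% Wilson interval 70.3% to 87.5%), while 1.57% of the Vector peaks of all other genes did. In the FTO list the share was 78.9% (66.7% to 87.5%) of 57 peaks, against 1.39% in the other genes. The intervals cover counting error only, and neighboring peaks of 1 gene share the same transcripts. The 5 lengths were named after the peak lengths of these genes were seen. The contrast with the other genes is therefore a description and no test. The 2 most frequent lengths in these genes were 54 bp and 108 bp. Of all 68 Vector peaks of exactly 54 bp, 35 lay on these chains, a share of 51.5%, and of the 42 FTO peaks of that length 21 did. Other collagen genes had such lengths too, with 10 Vector and 5 FTO peaks of the 5 helix lengths, among them 4 Vector peaks of Col24a1 and a peak of 54 bp of Col9a2 in each list.

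Counting all multiples of 9 mostly counts the same peaks again, since 65 of the Vector peaks have 1 of the 5 lengths. Multiples of 9 made up 70 of the 81 Vector peaks of the type V and XI chains, 86.4% (77.3% to 92.2%), and 48 of the 57 FTO peaks, 84.2% (72.6% to 91.5%). Over all listed peaks the shares were 13.2% and 13.1%. With each length counted once per gene and list, the shares of the chains were lower, at 60.7% and 60.9%. Ranked by this share, the first 4 of the 582 genes with at least 7 Vector peaks were Col5a2 with 20 of 22 peaks, Col11a1 with 16 of 18, Col5a1 with 29 of 34 and Col5a3 with 5 of 7. The next gene, Nucb2, had 5 of 8. This ranking counts repeated lengths each time. The Vector peaks had only 8 distinct lengths in Col5a2, 4 in Col11a1, 11 in Col5a1 and 5 in Col5a3. Genes were not ranked with each length counted once. The limit of 7 is the number of Col5a3 itself and leaves out the fibrillar chain Col24a1, of whose 5 Vector peaks all 5 were multiples of 9, while Col16a1 above the limit had 7 of 15. In the FTO list, where Col11a1 and Col5a3 no longer had 7 peaks, Col5a2 and Col5a1 again came first. The exon boundaries themselves were not compared, because no positions or genome of the build of the lists were used.

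**Figure D2:**
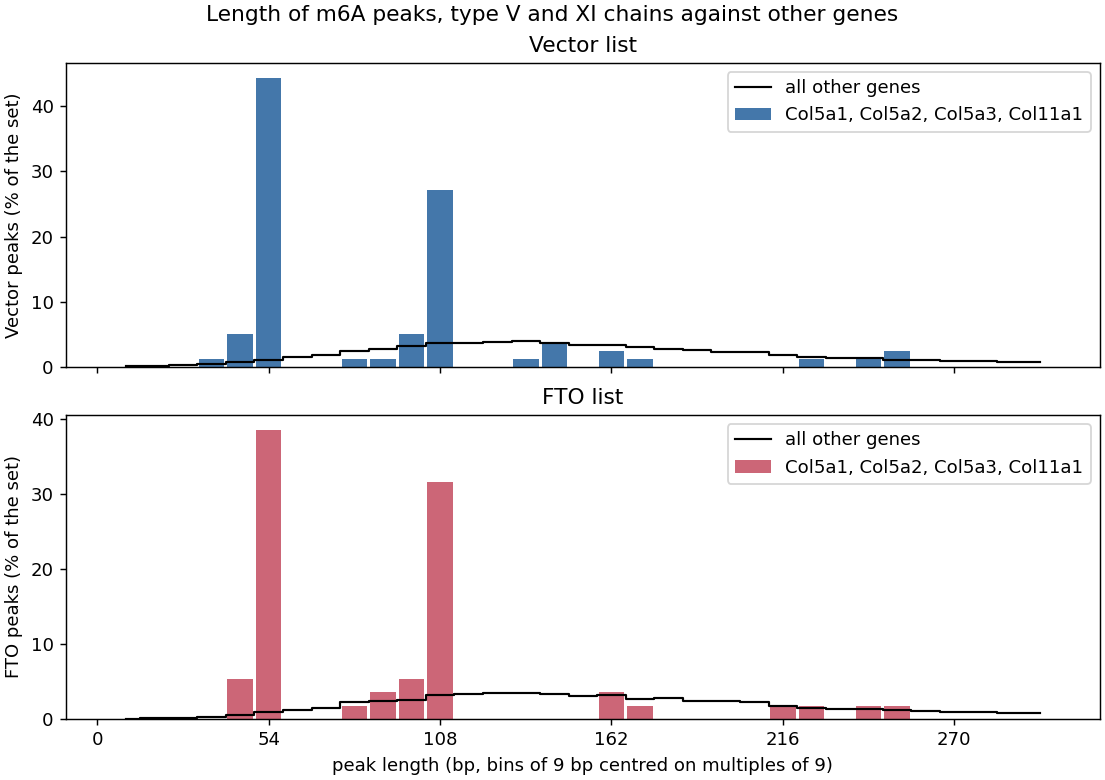
Share of the peaks of a set (vertical axis, %) in bins of 9 bp of peak length (horizontal axis, longer peaks not drawn), as bars for the type V and XI chains and as a black line for all other genes, with the Vector list above and the FTO list below. The chains have a tall bar at 54 bp and another at 108 bp in both lists, where the line of the other genes stays low and smooth.

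Col5a1 (gene ID 85490), which encodes the α1 chain found in nearly every type V molecule, had more Vector peaks than any other gene in that list. In the FTO list no gene had more than its 29 peaks. The Vector peaks comprised 14 of 54 bp, 9 of 108 bp, 3 of 45 bp and 1 each of 36, 90, 132, 163, 171, 240, 256 and 502 bp. The FTO peaks comprised 9 of 54 bp, 9 of 108 bp, 2 of 45 bp and 1 each of 57, 90, 93, 163, 171, 214, 240, 256 and 502 bp. All 9 peaks of 108 bp and the longest peak of 502 bp were therefore matched in number, and the largest difference, of 5 peaks, was at 54 bp. The peak of 502 bp was listed on a transcript of its own in both lists, and every other peak on a second transcript. When peaks were paired 1 to 1 by equal length, 26 pairs formed and 8 Vector peaks had no partner (23.5%, 12.4% to 40.0%). The 3 FTO peaks of 57, 93 and 214 bp had none. In every chain such pairing leaves at least the surplus of Vector peaks without a partner. The peaks of 1 gene are also not independent, so these per-gene intervals do not measure the uncertainty of an effect of FTO. Only 6 of the 26 pairs had a length that occurred once in each list, so for most pairs the length does not tell which exon-sized peak was kept. The summed length went from 3453 to 3334 bp, and this direction turned when only peaks of at least 100 or 200 bp, or each length once, were counted, with 82, 214 and 196 bp more in the FTO list.

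Col5a2 (gene ID 85250) encodes the α2 chain that joins the α1 chain of type V, and its peaks were nearly the same in both lists. The Vector list held 9 peaks of 54 bp, 4 of 99 bp, 4 of 108 bp and 1 each of 45, 78, 111, 162 and 225 bp. The FTO list held the same lengths in the same numbers apart from 1 peak of 99 bp fewer. All 21 FTO peaks thus had a Vector partner, and 1 of the 22 Vector peaks had none (4.55%, 0.807% to 21.8%). Peak numbers run along the genome, as 94.2% of the Vector steps and 93.3% of the FTO steps from 1 listed gene to the next stayed within 10 protein-coding genes. When pairs also had to keep the order of the peak numbers, 20 pairs were left for Col5a2, and for the other chains the order removed none. Among the 8 other genes with 20 to 24 Vector peaks, the FTO number ran from 8 to 20 with a median of 18, below the 21 of Col5a2.

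Col11a1 (gene ID 25654) encodes the α1 chain of type XI, which resembles the α1 chain of type V and can replace it in mixed fibrils. In the Vector list it had 10 peaks of 54 bp, 6 of 108 bp, 1 of 57 bp and 1 of 255 bp. In the FTO list it had 3 peaks of 54 bp and 3 of 108 bp. All 6 FTO lengths were found among the Vector peaks and also in the same order. The FTO peaks had only 2 lengths, both frequent among the Vector peaks, so this match is easily met and shows little. Without a partner were 12 Vector peaks (66.7%, 43.7% to 83.7%). With 18 Vector and 6 FTO peaks, 1-to-1 pairing leaves at least 12 by construction, so this share only restates the peak numbers. No pair had a length that occurred only once, so which of the 16 peaks of 54 or 108 bp were kept is not known. The summed length went from 1500 to 486 bp. The 23 other genes with 16 to 20 Vector peaks had 8 to 20 FTO peaks with a median of 15, so none had as few as Col11a1. An FTO number lower by 12 peaks or more was found in 2 genes in all, Col11a1 included. The difference of Col11a1 was carried by short and repeated peaks, as it was -4 among peaks of at least 100 bp, -1 among those of at least 200 bp and -2 with each length counted once.

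Col5a3 (gene ID 60379) encodes the α3 chain, a further partner in type V molecules. It had Vector peaks of 54, 108, 108, 54, 141, 144 and 143 bp in the order of their numbers and a lone FTO peak of 108 bp. Hence 6 of 7 Vector peaks were without a partner (85.7%, 48.7% to 97.4%), and the summed length went from 752 to 108 bp. With a lone FTO peak, at least 6 had to be without a partner by construction. The other 205 genes with 7 Vector peaks had 0 to 10 FTO peaks with a median of 6, and 9 of them had 1 or none. A number at least 3 times lower in the FTO list was met in Col5a3 and Col11a1, and in 6.70% of all genes with at least 7 Vector peaks. The limit of 3 times was not planned and equals the ratio of Col11a1 itself, so Col11a1 meets it by construction. The 6.70% is therefore a description and no measure of how rare such a loss is.

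**Figure D3:**
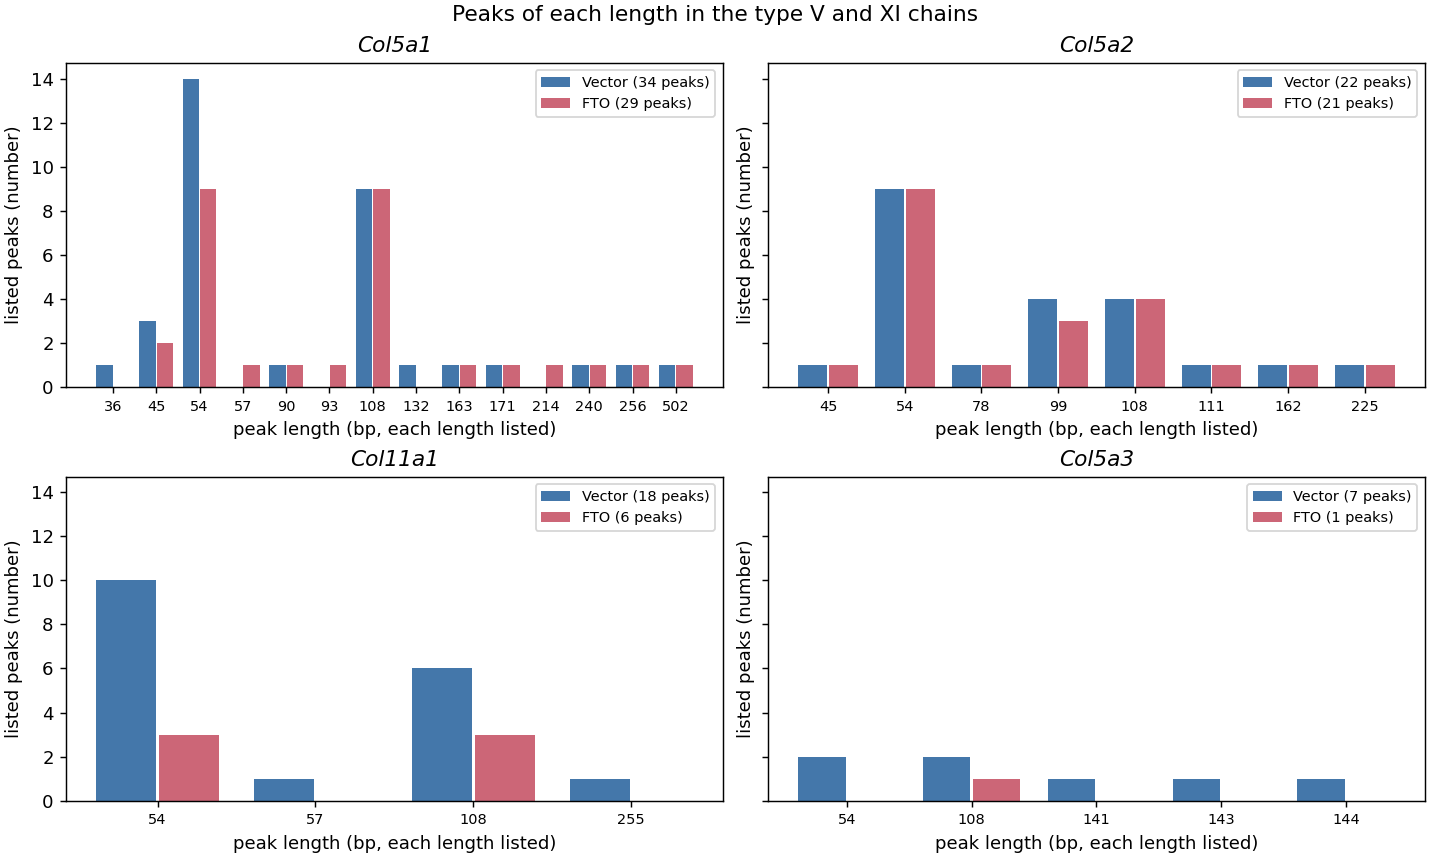
Number of listed peaks (vertical axis) of each length in bp that occurs in the gene (horizontal axis, lengths as categories), for Col5a1, Col5a2, Col11a1 and Col5a3, with bars for the Vector and the FTO list. In Col5a1 the bars of 108 bp are equal at 9 and those of 54 bp go from 14 to 9, in Col5a2 all but the bars of 99 bp are equal, and in Col11a1 the bars of 54 bp go from 10 to 3 and those of 108 bp from 6 to 3.

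Taking the chains as 1 class, 54 pairs of equal length formed between the lists. Without a partner were 27 of 81 Vector peaks, 33.3% (24.0% to 44.1%), and 3 of 57 FTO peaks, 5.26% (1.81% to 14.4%). The shares over all listed peaks were 42.7% and 31.6%. Among listed peaks under 100 bp, a class to which 47 of the Vector and 31 of the FTO peaks of the chains belonged, 50.7% of the Vector peaks and 30.0% of the FTO peaks were without a partner. With so many peaks of 54 and 108 bp in 1 gene, equal lengths also meet by coincidence, so the low shares of the chains do not show that the same exons were listed. Col11a1 supplied 12 of the 27 unpaired Vector peaks, and without it the Vector share was 23.8% (15.0% to 35.6%). Both lists had 5 peaks of at least 200 bp on these chains, so the difference of 24 peaks was among shorter ones. Within those 5, the peak of 255 bp of Col11a1 was in the Vector list alone and that of 214 bp of Col5a1 in the FTO list alone.

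The genes with the most similar pair of peak numbers were found by the distance between the pairs over the 2 lists. Nearest to Col11a1 were Cenpe with 19 and 8 peaks, Bdp1 with 16 and 8 and Cenpf with 16 and 8. Among the nearest to Col5a1 were Dst with 29 and 25 and Akap9 with 23 and 20. Nearest to Col5a2 were Akap9, Ktn1 with 22 and 19 and Eif4g3 with 20 and 20. Their peaks were not of the collagen kind, with medians from 91 to 213 bp in the Vector list and from 1 to 9 multiples of 9 per gene.

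**Figure D4:**
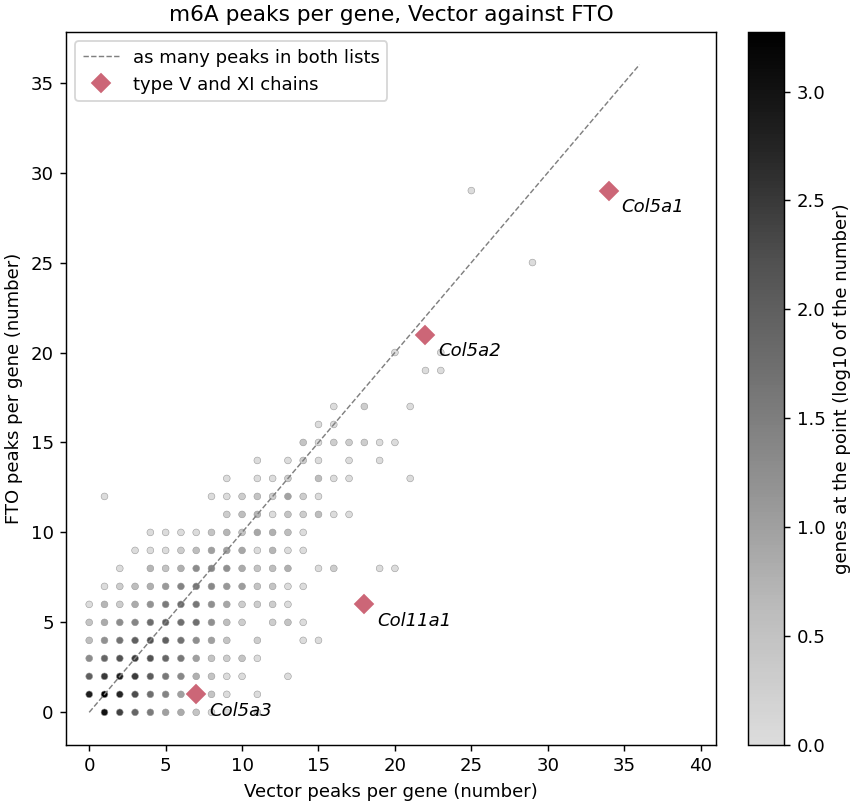
FTO peaks (vertical axis, number) against Vector peaks (horizontal axis, number) for all 8729 genes with a listed peak, where the grey shade gives how many genes share a point on a log10 scale, the dashed line marks equal numbers and diamonds mark the 4 type V and XI chains with peaks. Col5a1 at 34 and 29 lies farthest out, Col5a2 lies just under the dashed line, and Col11a1 at 18 and 6 and Col5a3 at 7 and 1 lie well below it.

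The main chains of the cardiac scar stood at 0. No peak was listed under the gene IDs of Col1a1 (29393) and Col1a2 (84352), which together form type I collagen, of Col3a1 (84032), which forms type III, and of Col11a2 (294279), a chain known from cartilage, in either group. The lists also held 248 Vector and 213 FTO peaks without a gene ID, which could not be assigned to a chain. Because the peak numbers run along the genome and most of them are not in the lists (64.3% of the numbers up to the highest one for Vector and 65.8% for FTO), the numbers left between listed neighbors limit how many further peaks a chain could hold. Between Xylt2 and Ppp1r9b, the neighbors of Col1a1 with peaks in both lists, 1 Vector number and 6 FTO numbers were left. Col3a1 lies next to Col5a2, and between Col5a2 and Ercc5 on its other side 12 Vector numbers and 9 FTO numbers were left. Around Col1a2, between Ppp1r9a and Gng11, they came to 10 and 16. For Col11a2 the stretch held peaks of 26 other genes in each list, with 72 and 53 numbers left, and sets no useful limit. These are numbers outside the lists that may belong to any gene or intron of the stretch, and the order of the genes was taken from the assembly GRCr8.

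The stretches around Col11a1 and Col5a1 were read in the same way. From Amy1 to S1pr1, around Col11a1, there were 38 Vector numbers and 27 FTO numbers. Of these, 18 and 6 were listed for Col11a1, 3 and 0 for another gene, and 17 and 21 were not listed. Around Col5a1, from Rxra to Olfm1, there were 42 and 33 numbers, and 8 and 4 were not listed.

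Of the other fibrillar chains, Col24a1 and Col27a1 had peaks and Col2a1, the chain of cartilage type II, had none. Col24a1 had Vector peaks of 405, 54, 54, 108 and 108 bp and an FTO peak of 405 bp, so its 4 helix-sized peaks were in the Vector list alone. Col27a1 had 2 Vector peaks, of 1736 and 147 bp, and 3 FTO peaks, of 1736, 54 and 112 bp. The fibril-associated collagens sit on the fibril surface, and 5 of the 9 found in the gene table had a peak. Of these, 3 had fewer FTO peaks and 2 as many, beside 41.4% and 37.4% of all genes with a peak. Col16a1 led the fibril-associated collagens with 15 Vector and 11 FTO peaks, 10 of them in pairs. Col14a1 had 2 and 0, and Col9a2 and Col12a1 had 1 and 1.

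Collagen also depends on enzymes that modify the chain in the endoplasmic reticulum, on export, on propeptide cleavage and on cross-linking. Of the 10 modifying and folding genes with a peak, 6 had fewer FTO peaks, 2 as many and 2 more. Over all genes with a peak these shares were 41.4%, 37.4% and 21.2%. Plod1, a lysyl hydroxylase, went from 5 to 2, and the prolyl 3-hydroxylases P3h1 and P3h2 and their relative P3h3 went from 3 to 2, from 4 to 0 and from 4 to 2. Of the 12 genes of export, cleavage and cross-linking with a peak, 3 had fewer, 3 as many and 6 more. Mia3, which carries bulky procollagen out of the endoplasmic reticulum, had 7 and 8 peaks, the Vector ones all paired. Loxl1, a lysyl oxidase, had 5 and 5 with the same lengths. Of all genes with a peak, 21.0% had the same lengths in both lists. That share includes genes with only 1 peak per list, so it is no like background for 5 peaks. The procollagen C-proteinases Bmp1 and Tll1 had 3 and 3 and 2 and 4.

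Proteins that bind the fibril and the receptors of collagen showed no single direction either. Of 8 fibril nucleators and binding proteins with a peak, 3 had fewer FTO peaks, 3 as many and 2 more, among them Thbs2 with 3 and 7, Fn1 and Aebp1 with 3 and 1 each and Fmod with 2 and 2. Of 7 receptor genes, 3 had fewer, 1 as many and 3 more. The tyrosine kinase receptor Ddr1 had 6 and 5, the uptake receptor Mrc2 had 5 and 3, the integrin subunit Itga11 had 3 and 0 and its partner Itgb1 had 1 and 1. Over the 6 lists together, 44 genes had a peak, with 19 fewer, 11 as many and 14 more. Over all genes with a peak, 41.4% had fewer, 37.4% as many and 21.2% more, so genes with fewer FTO peaks outnumbered those with more, 3613 against 1852. Whether the 44 genes differ from all genes in this was not tested. The median difference of the 44 genes was 0, as it was over all genes. With FTO numbers scaled by the list sizes, 19 had fewer and 25 more, because equal numbers become higher FTO numbers by construction, and over all genes 3486 had fewer and 5243 more.

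**Figure D5:**
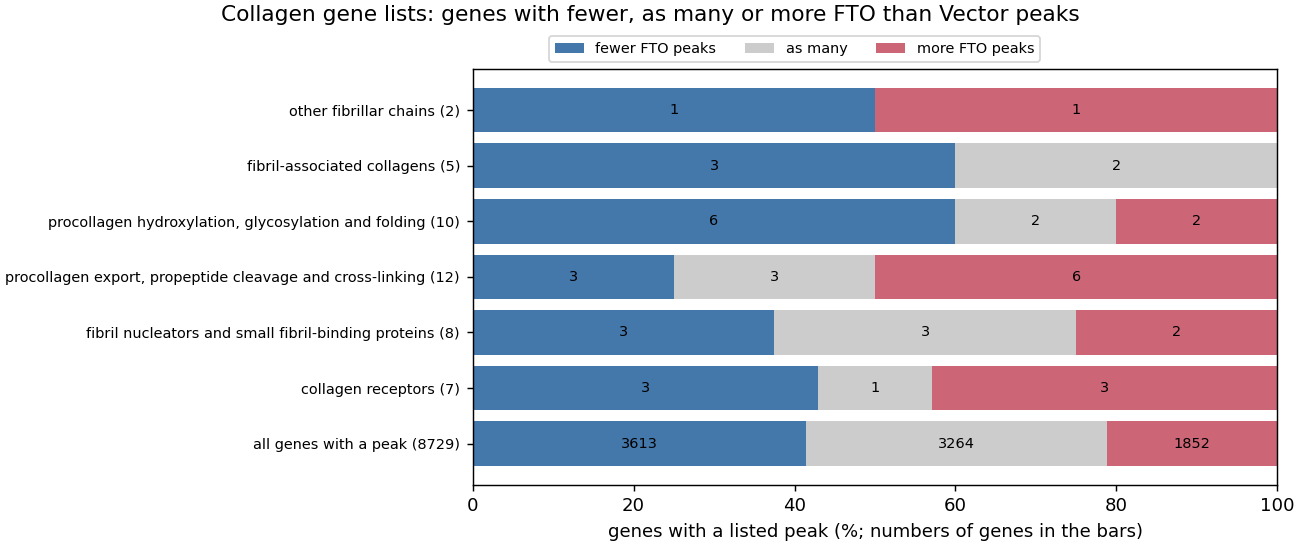
Share of the genes with a listed peak (horizontal axis, %) that had fewer, as many or more FTO than Vector peaks, for 6 lists of collagen genes and for all genes with a peak (vertical axis, number of genes in brackets), with the numbers of genes in the bars. The modifying and folding genes have 6 of 10 with fewer FTO peaks, the export and cross-linking genes 6 of 12 with more, and all genes 3613 of 8729 with fewer.

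The transfected gene, Fto, had 3 Vector and 9 FTO peaks. Peaks are no transcript levels, so the cell type could be looked at only by which marker genes had any. Of 8 fibroblast markers, 5 had a peak, among them Pdgfra with 7 and 6, and Vim, Col1a1 and Col3a1 had none. Of 5 cardiomyocyte markers 4 had a peak, with 14 Vector and 19 FTO peaks in all. All 3 macrophage markers had one, with 12 and 9 peaks, 2 of 3 smooth muscle markers, with 21 and 21, and 1 of 4 endothelial markers, with 0 and 2. The part of other cells in the collagen peaks was not tested.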

How the data were processed

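m6A-seq libraries of neonatal rat CFs were analysed from the lists of peaks the authors deposited, 1 for the Vector group and 1 for the FTO group, each from 1 m6A-IP and 1 input library. Per the submitters' processing notes, cutadapt 1.9.3, HISAT2 2.0.4 and the build rn6 were used. The peaks are named MACS, and the version, the threshold and the annotation are not given in the sources used here. The deposited values are peak lengths in bp, not normalized, and the depth is unknown. No column of other samples was left aside.

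Genes were taken by gene ID, or by transcript where none was given. Symbols came from RefSeq of GRCr8, which matched 7489 of 7723 Vector and 6920 of 7145 FTO gene IDs and 67 of the 70 listed genes. Peaks were paired 1 to 1 by equal gene and length, and the pairing was tested on simulated lists. The peaks added in these lists had lengths found nowhere else, so the test could not cover coincident pairs at repeated lengths. With 1 list per group no p-values were computed, and shares have 95% Wilson intervals. The members and the gene lists were chosen with earlier results of these data known. The genes named are the members, the other fibrillar chains, up to 4 genes per list with the most peaks, genes with at least 3 peaks in 1 group alone, up to 3 genes nearest to Col11a1, Col5a1 and Col5a2, and Fto. Some genes that the rule or the flanks would name are not reported here. Nucb2, the flanking genes and those of the last section were named after their values were seen, and so were the 5 helix lengths and the limit of 7 Vector peaks. The limit of 3 times fewer FTO peaks was not planned and equals the ratio of Col11a1. Planned protein features were not computed, since no protein sequences were used, and no sequence is printed. Python 3.11.15, numpy 2.4.6, pandas 2.3.3, statsmodels 0.14.6 and matplotlib 3.10.9 were used.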

Additional observations from a re-analysis of the deposited data

How the results depend on the processing

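Of 67 values under the alternatives, 34 stayed within 1.5 times the number or within the interval of the share, 26 moved and 7 turned direction. With peaks of at least 100 bp, FTO minus Vector peaks came to 0 for Col5a1 and Col5a2, -4 for Col11a1 and -8 for the type V and XI chains together, and the summed length to 82 bp for Col5a1, 0 bp for Col5a2 and -579 bp for Col11a1. With peaks of at least 200 bp, the differences were 1 for Col5a1, 0 for Col5a2 and Col5a3, -1 for Col11a1 and 0 together, and those of the summed length 214, 0, 0 and -255 bp. Under that limit each list held only 5 peaks of the chains, and 20.0% of the Vector and 20.0% of the FTO ones were without a partner. Of the 6 lists, 7 genes had more FTO peaks. With each length counted once per gene and list, the differences were 1 for Col5a1, 0 for Col5a2, -2 for Col11a1 and -5 together, with summed lengths of 196, 0 and -312 bp for the 3 genes, and multiples of 9 made up 60.7% of the Vector and 60.9% of the FTO peaks. With FTO numbers scaled by the list sizes, the differences were 0.63 for Col5a1, 3.07 for Col5a2 and -12.9 together, and 25 genes of the lists had more. Where a peak of any length could serve as the partner, 0% of the FTO peaks were left. These rules remove short or repeated peaks, or lengthen the FTO list, by construction. Pairing in the order of the peak numbers was added after the data were seen.

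A stricter threshold and overlap of positions were not run, since the lists analysed here give neither heights nor positions. Each group has 1 list, so no replicate was left out. No paired analysis was possible because the groups share no 2 replicate numbers, with a lone m6A-IP and input library in each. Depth, which is unknown, bears on all differences in peak numbers.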

Other observations

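Peaks of 1 repeated length were not limited to collagen. Cttn, which encodes cortactin, an actin-binding protein built of repeats in tandem, had 8 Vector peaks and 6 FTO peaks of 111 bp, a length of 37 codons, among 21 and 17 peaks in all. Ktn1 had 4 peaks of 91 bp in each list, and Abi3bp had 3 Vector and 4 FTO peaks of 75 bp. In the Vector list the 5 highest numbers of equal lengths within a gene were 14 peaks of 54 bp in Col5a1, 10 of 54 bp in Col11a1, 9 of 54 bp in Col5a2, 9 of 108 bp in Col5a1 and the 8 of Cttn. Across all genes, 108 bp was the most frequent peak length in both lists, with 126 Vector and 95 FTO peaks, of which the type V and XI chains held 21 and 17.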
